A study of Mus musculus with 4 samples.

Results

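The genes described here are 10 genes of antigen presentation by MHC class I in CX3CR1-positive cells of the mouse periosteum. They were taken by name from both deposited tables, and all 10 were found among the 14939 genes listed for the ACE sort and the 14943 listed for the CD74 sort. They are the heavy chains H2-K1 and H2-D1, the light chain B2m, the peptide transporter Tap1 and Tap2, the loading factor Tapbp, the inducible proteasome subunits Psmb8, Psmb9 and Psmb10, and the transactivator Nlrc5. The periosteum is the sheath of tissue on the outer face of bone. Cells came from male wild-type C57BL/6 mice at postnatal day 28 and were sorted by flow cytometry for CD45, a surface protein of blood cells, and for the chemokine receptor Cx3cr1. An ACE-positive and an ACE-negative fraction were sorted by angiotensin-converting enzyme, and a CD74-positive and a CD74-negative fraction by the invariant chain of MHC class II. The series asked how subsets of periosteum-resident macrophages differ in gene expression. Each of the 4 fractions is 1 RNA-seq library, the number of mice behind a library is not stated, and no difference below has a replicate check.

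MHC class I molecules show peptides from inside the cell to CD8 T cells and to natural killer cells. The proteasome cuts proteins into peptides, and under interferon inducible catalytic subunits take the place of the constitutive ones, which gives the immunoproteasome. The Tap1 and Tap2 transporter carries peptides into the endoplasmic reticulum, where Tapbp holds it beside an empty heavy chain bound to B2m. Nlrc5 drives transcription of class I genes, as Ciita does for class II, and macrophages raise both sets under interferon gamma.

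The promoters of the heavy and light chains are shown because they carry together the elements known to bind the class I factors. Each line holds the 250 bases before the start site of transcription, read from RefSeq on GRCm38.p6. Capitals mark matches, on either strand, to the NF-kB consensus, the interferon-stimulated response element (GAAANNGAA or GAANNGAAA), the X2 box core (TGACG) and the Y box core (CCAAT). The H2-K1 window is chr17:34000348-34000597 on the minus strand, the H2-D1 window chr17:35262844-35263093 on the plus strand, and the B2m window chr2:122147437-122147686 on the plus strand. The H2-D1 window lies inside the interval that the deposited tables give for the gene, which starts further upstream.
H2-K1: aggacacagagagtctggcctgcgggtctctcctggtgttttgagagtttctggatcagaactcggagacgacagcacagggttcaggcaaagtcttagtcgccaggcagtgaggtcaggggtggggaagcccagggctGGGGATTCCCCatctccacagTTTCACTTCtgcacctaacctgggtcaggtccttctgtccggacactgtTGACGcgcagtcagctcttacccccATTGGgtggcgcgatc
H2-D1: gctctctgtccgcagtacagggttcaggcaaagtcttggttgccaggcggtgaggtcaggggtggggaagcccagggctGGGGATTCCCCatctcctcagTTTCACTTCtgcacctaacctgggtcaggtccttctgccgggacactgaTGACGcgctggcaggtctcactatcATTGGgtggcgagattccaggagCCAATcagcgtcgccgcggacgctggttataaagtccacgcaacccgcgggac
B2m: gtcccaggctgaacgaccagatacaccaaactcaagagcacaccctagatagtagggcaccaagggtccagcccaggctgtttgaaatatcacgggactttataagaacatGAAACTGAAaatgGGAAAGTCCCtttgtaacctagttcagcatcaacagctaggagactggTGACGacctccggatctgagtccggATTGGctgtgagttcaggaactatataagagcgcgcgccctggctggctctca

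In each of these 3 windows all 4 motifs were found. In H2-K1 and H2-D1 a pair of overlapping NF-kB matches makes the first run of capitals, and the response element follows it. In B2m the response element comes first. Over all 32851 windows of this length, the NF-kB consensus was in 7.25%, the response element in 12.5%, the X2 core in 17.8%, the Y core in 33.8% and all 4 in 0.0548%. Windows were found for 8 of the 10 genes, Tap2 and Nlrc5 having none in the table used. The X2 and Y cores alone were in the Tap1 and Psmb9 windows, which lie head to head and share 225 bases, and the Y core alone in that of Tapbp. None of the 4 was in the windows of Psmb8 and Psmb10. A match is a description of the letters and not of binding.

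The ACE-negative library held 12561196 reads on listed genes, the ACE-positive 10944171, the CD74-negative 7020232 and the CD74-positive 13282126. Values are normalised reads, the gene's reads divided by the authors' size factor for its library, and levels of different tables are scaled apart. Brackets hold 95% intervals that cover counting error only. A gene is called higher or lower where its mean was at least 50 normalised reads, its ratio at least 2-fold and the interval of the ratio did not include 1. The sorting markers followed their labels: Ace rose from 136 to 14202 normalised reads in the ACE sort, and Cd74 from 4382 to 20882 in the CD74 sort. Each marker was higher in the other sort too, Cd74 at 6570 and 43363 in the ACE sort, 6.60-fold [6.43 to 6.77], and Ace at 621 and 2257 in the CD74 sort, 3.64-fold [3.29 to 4.03]. Cx3cr1 was found in every library, at 2116 and 5550 in the ACE sort and 1518 and 2738 in the CD74 sort. So was Ptprc, the gene of CD45, at 9773 and 18527 in the ACE sort, 1.90-fold higher [1.85 to 1.94]. In the CD74 sort Ptprc had 8869 and 11785, 1.33-fold higher [1.29 to 1.37]. Centred on genes of like length, its log2 ratios were 0.34 and -0.28. Neutrophil granule genes were also abundant in every library, with summed levels given further on. In sorted bulk samples, a gene lower because fewer cells of a type were present and a gene lower because each cell held less RNA cannot be told apart.

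The heavy and light chains were the most abundant of the 10 genes in every library. Per kb of exon, B2m stood at 41550 normalised reads in the ACE-negative, 63986 in the ACE-positive, 35869 in the CD74-negative and 32065 in the CD74-positive library, and it ranked between 4 and 10 among all genes. H2-D1 came next, with ranks between 21 and 68, and then H2-K1, with ranks between 40 and 141. Psmb10, Tapbp and Tap1 followed, Psmb10 ahead of Tapbp in both negative libraries and Tapbp ahead of Psmb10 in both positive ones. Psmb9 and then Psmb8 came next, and their intervals overlapped in both libraries of the CD74 sort. Those of Tapbp and Tap1 overlapped in the CD74-negative library. Nlrc5 and Tap2 were last, from 50.5 per kb for Nlrc5 in the CD74-negative to 173 for Tap2 in the ACE-positive library, and their intervals overlapped in both positive libraries.

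**Figure D1:**
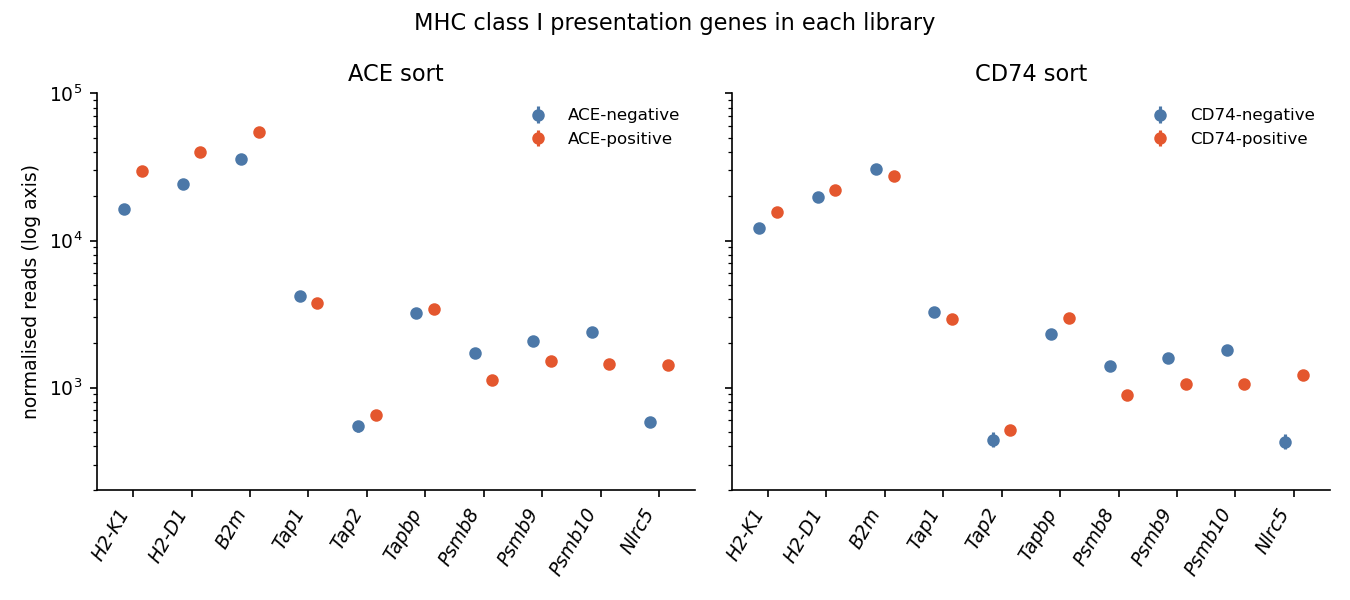
Normalised reads (log axis) of the 10 genes in the negative library (blue) and the positive library (orange) of each sort, with exact 95% counting intervals, mostly hidden by the points. B2m, H2-D1 and H2-K1 lie above the other 7 genes in all 4 libraries, and the Nlrc5 points lie apart in both sorts.

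Across the ACE sort, 1 of the 10 genes, Nlrc5, was called higher and 0 lower, where 10.5% of the 9895 genes tested passed upward and 9.77% downward. Without a minimum fold, the interval lay above 1 for 6 genes (34.4% of all genes) and below 1 for 4 (42.6%). In the CD74 sort Nlrc5 was again the gene called higher and 0 were lower, against 10.1% and 8.57% of 9674 genes. Without a minimum fold, 5 lay above 1 (36.8%) and 5 below (38.5%). The median log2 ratio of the 10 genes, positive over negative, was 0.17 in the ACE sort, where that of all genes was -0.08. In the CD74 sort it was -0.0028, where that of all genes was -0.03. Both sorts together, 5 genes lay above 1 in each (26.8% of 9595 genes), 4 below in each (32.2%) and 1, B2m, in opposite directions (4.16%). At a lower threshold of 1.5-fold, 4 genes were higher (20.3% of all genes) and 2 lower (23.8%) in the ACE sort, and 1 higher (21.5%) and 3 lower (22%) in the CD74 sort. In the authors' deposited table the adjusted p-value was 1 for all 10 genes in both sorts, and the lowest p-values were 0.127 in the ACE sort and 0.0785 in the CD74 sort.

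The classical heavy chains bind the peptide and were higher in both positive libraries, short of a call. H2-K1 (ENSMUSG00000061232, GRCm38 chromosome 17, 33996017 to 34000347, minus strand) had 16314 normalised reads in the ACE-negative and 29905 in the ACE-positive library, 1.83-fold higher [1.80 to 1.87]. The CD74-negative library had 12166 and the CD74-positive 15614, 1.28-fold higher [1.25 to 1.32]. H2-D1 (ENSMUSG00000073411, chromosome 17, 35262730 to 35267499, plus strand) had 24367 and 39987 in the ACE sort, 1.64-fold higher [1.61 to 1.67]. Across the CD74 sort it had 19761 and 21934, 1.11-fold higher [1.09 to 1.13]. Set against H2-D1 in the same library, H2-K1 gained, from the negative to the positive library, 1.12-fold [1.09 to 1.15] with ACE and 1.16-fold [1.12 to 1.19] with CD74. The pair share sequence: 27.9% of the H2-K1 transcript lies in runs of 50 bases also found in H2-D1, and 21.5% of the H2-D1 transcript in runs also found in H2-K1, so reads may have been split between them. Counting runs found in any other gene, 35.8% of the H2-K1 transcript and 38.9% of the H2-D1 transcript were shared, so reads may also have been split with further genes.

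B2m, the light chain that all class I heavy chains need to reach the surface, was higher in the positive library of the ACE sort and not in that of the CD74 sort. The gene (ENSMUSG00000060802, chromosome 2, 122147686 to 122153083, plus strand) had 35733 normalised reads in the ACE-negative and 55028 in the ACE-positive library, 1.54-fold higher [1.52 to 1.56]. In the CD74-negative library it had 30847 and in the CD74-positive library 27576, which was 1.12-fold lower [1.10 to 1.14] as normalised by the authors, while plain totals of reads gave a log2 ratio of 0.018 and centring by gene length 0.82. The heavy chains together, as summed reads with no division by length, gained 1.12-fold [1.10 to 1.14] against B2m with ACE and 1.32-fold [1.29 to 1.35] with CD74. Centring by gene length turned this contrast in both sorts. The log2 ratio of B2m was then 1.37 in the ACE sort, above 1.20 for H2-K1 and 1.06 for H2-D1. With CD74 it was 0.82, above 0.65 and 0.52. No 50 bases of the B2m transcript were found in another gene.

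**Figure D2:**
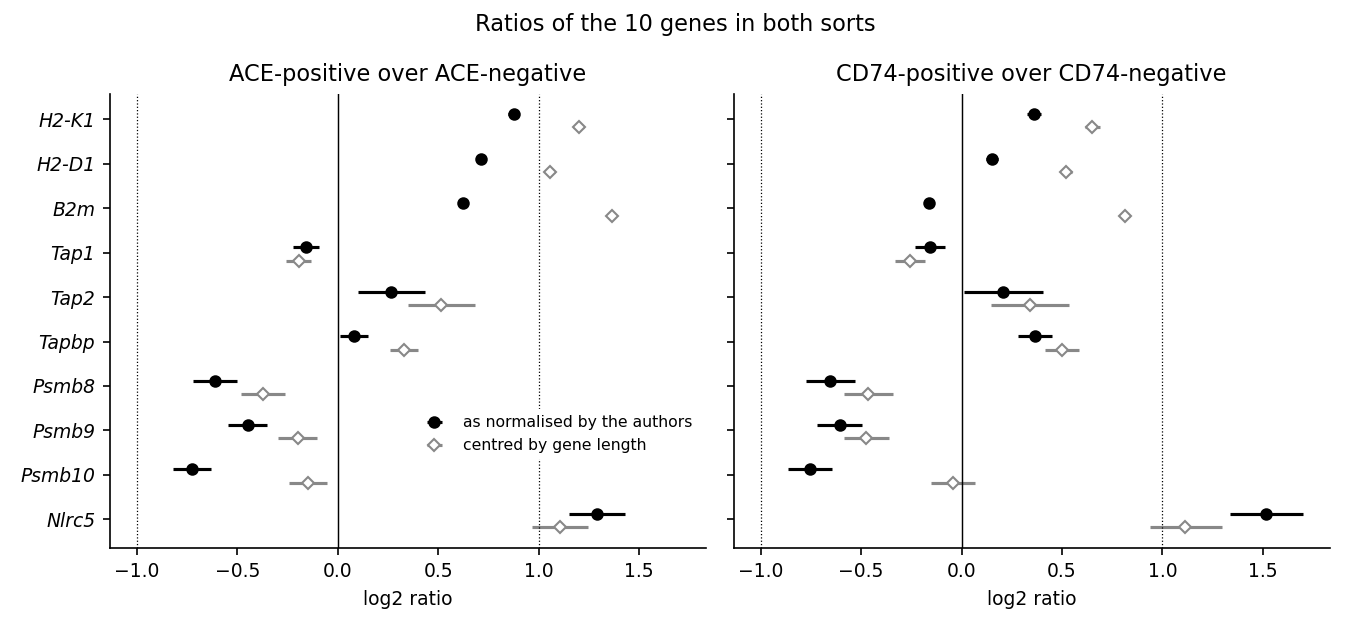
Log2 ratio of the 10 genes, positive over negative, in the ACE sort (left) and the CD74 sort (right), with 95% counting intervals. Black circles are as normalised by the authors, grey diamonds are centred on genes of like length, and dotted lines mark a 2-fold difference: Nlrc5 is beyond it in both panels by either measure.

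Gene length moved with the ratios in both sorts, and its part in these differences was not tested. Over 20 bins of exon length, the median log2 ratio over all genes ran from -0.74 for the shortest to 0.58 for the longest across the ACE sort, and for CD74 from -0.98 to 0.69. B2m, with 860 exon bases, is in the shortest bin, and Nlrc5, with 8493, is a long gene. Centred on the median of their own bin, the log2 ratios in the ACE sort were 1.37 for B2m, 1.20 for H2-K1, 1.06 for H2-D1 and 1.10 for Nlrc5, so that 4 of the 10 genes were called higher, where 10.2% of all genes were, and 0 lower (5.56%). In the CD74 sort they were 0.82, 0.65, 0.52 and 1.11 in the same order, and Nlrc5 was the 1 gene called higher (7.5%), with 0 lower (4.71%). The median of the 10 genes, centred, was 0.42 in each sort.

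**Figure D3:**
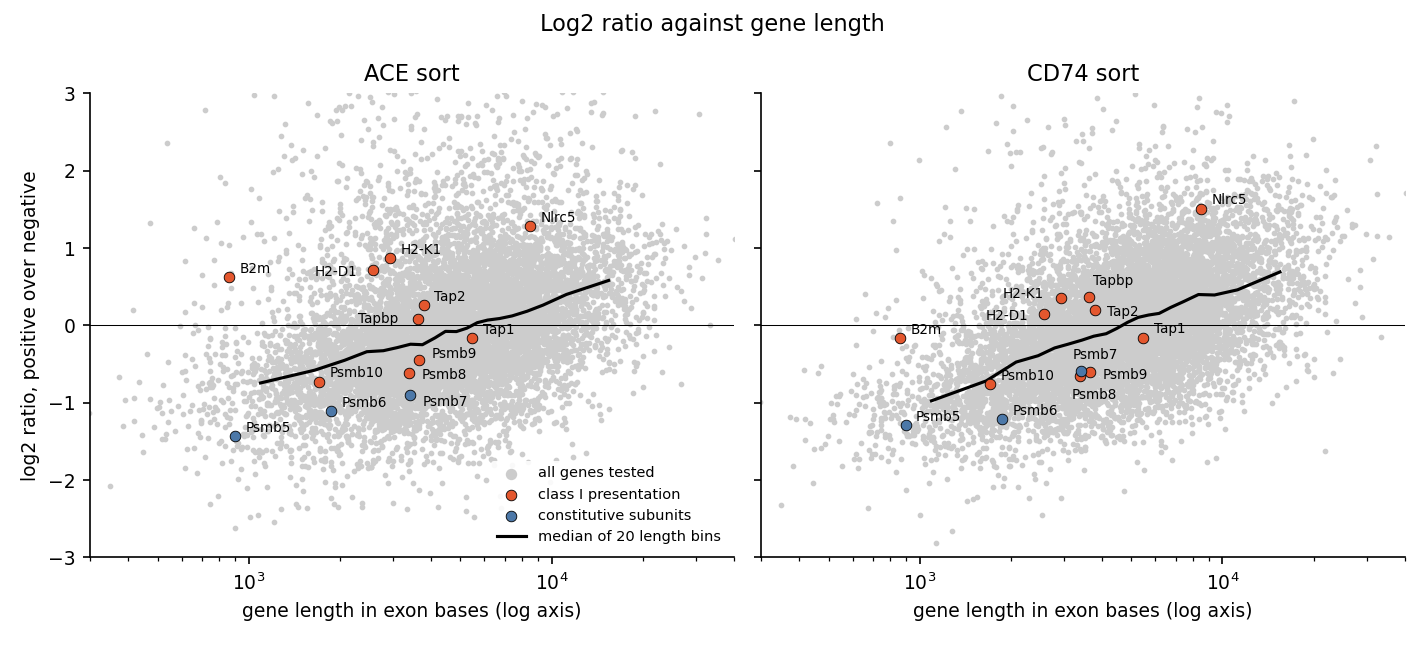
Log2 ratio against gene length in exon bases (log axis) for all genes tested (grey), the 10 class I presentation genes (orange) and the constitutive proteasome subunits (blue), with the median of 20 length bins (line); genes beyond the axes are not drawn. The line climbs from -0.74 to 0.58 for ACE and from -0.98 to 0.69 for CD74, and B2m, H2-K1 and H2-D1 lie above it in both.

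As normalised by the authors, the peptide transporter and its partner differed little between the fractions. Tap1 (chromosome 17, 34187553 to 34197225, plus strand) had 4196 normalised reads in the ACE-negative and 3757 in the ACE-positive library, 1.12-fold lower [1.07 to 1.17]. Plain totals gave it a log2 ratio of -0.0165 there. With CD74 as the marker it had 3278 and 2941, 1.11-fold lower [1.06 to 1.17], which plain totals turned to a log2 ratio of 0.024. Tap2 (chromosome 17, 34203527 to 34216321, plus strand) had 545 and 656 in the ACE sort, 1.20-fold higher [1.07 to 1.35]. Across the CD74 sort it had 444 and 512, 1.15-fold higher [1.01 to 1.32]. The ratio of Tap1 to Tap2, which work as a pair, was lower in both positive libraries, at 0.745 of that in the negative library [0.659 to 0.841] in the ACE sort and 0.778 [0.674 to 0.898] in the CD74 sort. Tapbp, or tapasin (chromosome 17, 33915899 to 33929292, plus strand), had 3228 and 3412 in the ACE sort, 1.06-fold higher [1.01 to 1.11]. It had 2323 and 2992 in the CD74 sort, 1.29-fold higher [1.22 to 1.36]. All 3 genes share exon bases with neighbours, Tap1 with Psmb9 on the other strand (3.87% of its exon bases), Tap2 with the antisense Gm15821 (14.1%) and Tapbp with the antisense Gm19412 (24.9%). The strand setting of the counting is not given in the sources used here, so such reads cannot be told apart.

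The inducible proteasome subunits were lower in both positive libraries, short of a call. Psmb8 (chromosome 17, 34197721 to 34201454, plus strand), the inducible counterpart of Psmb5, had 1716 normalised reads in the ACE-negative and 1123 in the ACE-positive library, 1.53-fold lower [1.41 to 1.65]. The CD74 sort gave 1395 and 887, 1.57-fold lower [1.45 to 1.71]. Psmb9 (chromosome 17, 34181987 to 34187764, minus strand), the counterpart of Psmb6, had 2071 and 1518 in the ACE sort, 1.36-fold lower [1.28 to 1.46]. The CD74 sort gave 1602 and 1051, 1.52-fold lower [1.41 to 1.65]. Psmb10 (chromosome 8, 105935735 to 105938444, minus strand), the counterpart of Psmb7, had 2398 and 1451 in the ACE sort, 1.65-fold lower [1.55 to 1.77]. The CD74 sort gave 1792 and 1061, 1.69-fold lower [1.57 to 1.82]. Centred by gene length, the log2 ratios of Psmb8, Psmb9 and Psmb10 were -0.37, -0.20 and -0.15 in the ACE sort and -0.46, -0.47 and -0.04 in the CD74 sort. Psmb8 shares 14.7% of its exon bases with the antisense Gm20496, and Psmb9 5.79% with Tap1. Psmb9, Tap1, Psmb8 and Tap2 are neighbours within 34335 bases of chromosome 17 (34181987 to 34216321). Within this cluster Tap2 lay above 1 and the other 3 genes below 1 in both sorts, as normalised by the authors.

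As normalised by the authors, the constitutive subunits Psmb5 and Psmb6 were lower by more than their inducible counterparts in both sorts, which centring by gene length turned for Psmb5 in the CD74 sort. Psmb5 went from 868 to 321 normalised reads with ACE, 2.70-fold lower [2.37 to 3.08], and from 632 to 258 with CD74, 2.46-fold lower [2.13 to 2.83]. Psmb6 went from 2500 to 1164, 2.15-fold lower [2.0 to 2.30], and from 2093 to 905, 2.31-fold lower [2.14 to 2.49]. Psmb7 went from 1291 to 690, 1.87-fold lower [1.70 to 2.06], and from 818 to 543, 1.51-fold lower [1.35 to 1.68]. Thus 2 of 3 were called lower in each sort, where 9.77% of all genes were in the ACE sort and 8.57% in the CD74 sort. Centred by gene length 0 of 3 were called, with log2 ratios of -0.69 for Psmb5, -0.65 for Psmb6 and -0.67 for Psmb7 in the ACE sort, and -0.32, -0.49 and -0.40 in the CD74 sort. Psmb5 shares 74.0% of its transcript, in runs of 50 bases, with the pseudogene Gm3375, and its reads are uncertain. Psmb7 shares 11.8% of its exon bases with Nek6 on the other strand.

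The inducible share of the catalytic subunits does not depend on how the libraries were scaled to each other. Per kb of exon, Psmb8 made up 34.4% [32.6 to 36.3] of Psmb8 plus Psmb5 in the ACE-negative and 48.2% [45.1 to 51.4] in the ACE-positive library, and 37.0% [34.3 to 39.7] and 47.8% [44.9 to 50.7] in the CD74 sort. Psmb9 made up 29.8% [28.6 to 31.0] and 40.0% [38.2 to 41.9] of Psmb9 plus Psmb6 in the ACE sort, and 28.1% [26.5 to 29.8] and 37.3% [35.6 to 39.0] in the CD74 sort. Psmb10 was near 80% of its pair with Psmb7 in every library: 78.8% [77.7 to 80.0] and 80.8% [79.4 to 82.2] in the ACE sort, 81.5% [79.9 to 82.9] and 79.7% [78.2 to 81.0] in the CD74 sort. The first 2 shares were thus higher in both positive libraries, with intervals that did not overlap. That of Psmb10 went up by 1.98 points in the ACE sort and fell by 1.79 points in the CD74 sort, with intervals that overlapped in each. Compared directly, the ratio of Psmb10 to Psmb7 in the ACE-positive library was 1.13 of that in the negative library [1.01 to 1.27], an interval above 1. In the CD74 sort it was 0.892 [0.782 to 1.02], an interval that includes 1. Over all 3 pairs the share was 48.1% and 57.5% in the ACE sort, a difference of 9.43 points, and 48.0% and 55.8% in the CD74 sort, a difference of 7.80 points. Per kb of exon, the ratio of inducible to constitutive reads went from 0.926 to 1.35 with ACE and from 0.922 to 1.26 with CD74. As summed reads with no division by length, that ratio gained 1.42-fold [1.33 to 1.51] with ACE and 1.30-fold [1.21 to 1.40] with CD74. The share does depend on the lengths used: with those of the longest coding transcripts the differences were 8.91 and 7.21 points, and with no length they were 8.26 and 6.28 points. The constitutive subunits are the shorter of the Psmb5 and Psmb8 pair and of the Psmb6 and Psmb9 pair, so the length trend moves with these shares. Centred by gene length, the inducible subunit had the higher log2 ratio in all 3 pairs of the ACE sort, Psmb10 (-0.15) against Psmb7 (-0.67) included. In the CD74 sort Psmb8 (-0.46) then lay below Psmb5 (-0.32), Psmb9 (-0.47) and Psmb6 (-0.49) were close, and Psmb10 (-0.04) lay above Psmb7 (-0.40). The contrast between the pairs therefore depends on the centring.

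**Figure D4:**
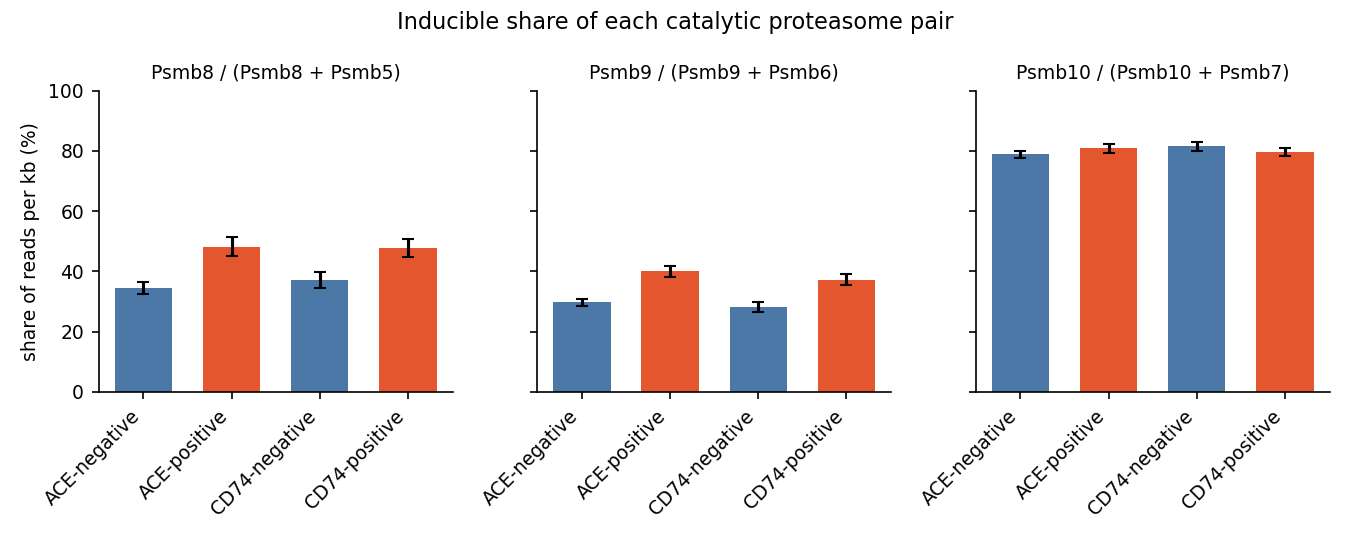
Share of the inducible subunit in each catalytic pair, in percent of reads per kb of exon, in the 4 libraries (blue negative, orange positive), with exact binomial 95% intervals. The Psmb8 and Psmb9 bars are higher in both positive libraries, and the Psmb10 bars lie between 78.8% and 81.5%.

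The proteasome activator, whose Psme1 and Psme2 subunits interferon induces, had 1 of 3 genes called lower in the ACE sort (9.77% of all genes). In the CD74 sort 0 were called, where 10.1% of all genes were higher and 8.57% lower. Centred by gene length, 0 were called in either sort. Psme2 went from 2620 to 1282 normalised reads with ACE, 2.04-fold lower [1.91 to 2.19], and from 2137 to 1087 with CD74, 1.97-fold lower [1.83 to 2.11]. Psme1 had 3732 and 2728 in the ACE sort, a log2 ratio of -0.45 that was 0.00 when centred by gene length, and 3446 and 1863 in the CD74 sort. Psme3, the nuclear form, had 1597 and 1386 in the ACE sort and 1205 and 1335 in the CD74 sort.

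Nlrc5 (ENSMUSG00000074151, chromosome 8, 94434356 to 94527272, plus strand) was the 1 gene of the 10 past 2-fold as normalised by the authors, and it was so in both sorts. It had 583 normalised reads in the ACE-negative and 1423 in the ACE-positive library, 2.44-fold higher [2.22 to 2.69]. It had 429 in the CD74-negative and 1225 in the CD74-positive library, 2.86-fold higher [2.52 to 3.24]. Both positive libraries were thus above both negative ones, though levels of the 2 tables are scaled apart. Centred by gene length its log2 ratio was 1.10 in the ACE sort and 1.11 in the CD74 sort. Its class II counterpart Ciita had 167 and 930 in the ACE sort, 5.58-fold higher [4.73 to 6.61], and 89.3 and 613 in the CD74 sort, 6.87-fold higher [5.30 to 9.06].

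Of 15 further transcription factors of class I promoters, the ACE sort had 2 called higher and 1 lower, and the CD74 sort 2 higher and 0 lower. Over all genes the shares called higher and lower were 10.5% and 9.77% in the ACE sort and 10.1% and 8.57% in the CD74 sort, so these counts are near the background. Stat2, which carries the type I interferon signal, went from 1193 to 2390 with ACE, 2.0-fold higher [1.87 to 2.15], and from 890 to 2148 with CD74, 2.41-fold higher [2.21 to 2.64]. Irf2 was 2.02-fold higher [1.86 to 2.19] in the ACE sort, from 864 to 1744, and had 773 and 1239 in the CD74 sort. Irf8, a factor of the myeloid lineage, was 2.33-fold lower [2.24 to 2.42] in the ACE sort, from 8340 to 3587, and had 6523 and 3702 in the CD74 sort. Rfx5, which binds the X box, was 2.12-fold higher [1.54 to 2.96] in the CD74 sort, from 70.3 to 149, and had 86.6 and 173 in the ACE sort. Centred by gene length, Irf2, Rfx5 and, in the ACE sort, Stat2 were no longer called, while Irf8 was called lower in both sorts.

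Interferon targets outside antigen presentation were also measured. Of 19 tested, 10 were called higher in the ACE sort (10.5% of all genes) and 0 lower (9.77%). Their median log2 ratio there was 1.07, where that of all genes was -0.08. In the CD74 sort 7 were higher (10.1%) and 0 lower (8.57%). The median there was 0.75, where that of all genes was -0.03. Cxcl9, a chemokine for T cells, went from 128 to 821 with ACE, 6.44-fold higher [5.34 to 7.81], and from 108 to 447 with CD74, 4.13-fold higher [3.24 to 5.33]. Gbp4, a guanylate-binding protein, was 5.72-fold higher [4.48 to 7.39] and 2.85-fold higher [2.16 to 3.83]. Of 7 interferon receptor and kinase genes, 1 was called higher in the ACE sort (10.5% of all genes) and 0 in the CD74 sort (10.1%). It was Ifngr1, a chain of the interferon gamma receptor, from 2573 to 5870 in the ACE sort or 2.28-fold [2.18 to 2.39]. Ifngr1 had 2115 and 3037 in the CD74 sort.

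Among 11 nonclassical and class I-like heavy chains tested, 4 were called higher in the ACE sort (10.5% of all genes) and 2 in the CD74 sort (10.1%). In each sort 0 were called lower (9.77% and 8.57%). H2-Q6 went from 332 to 2376 with ACE, 7.17-fold higher [6.39 to 8.06], and from 426 to 908 with CD74, 2.13-fold higher [1.88 to 2.43]. H2-Q7 went from 467 to 2292, 4.91-fold higher [4.44 to 5.43], and from 461 to 928, 2.01-fold higher [1.78 to 2.28]. The H2-Q6 and H2-Q7 values are uncertain, since 66.4% and 60.7% of their transcripts lie in runs of 50 bases also found in other genes. The abundant H2-T23, which gives the Qa-1 molecule, had 3589 and 4076 in the ACE sort and 2881 and 2775 in the CD74 sort, and it shares 59.9% of its transcript in this way. H2-T22 had 1940 and 2171 in the ACE sort and 1547 and 1400 in the CD74 sort, with 83.4% shared.

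Of 8 further loading and trimming genes, 1 was called higher in the ACE sort, near the 10.5% of all genes, and 0 in the CD74 sort (10.1%). It was Lnpep, an aminopeptidase that trims peptides in endosomes, at 1422 and 3384 or 2.38-fold higher [2.24 to 2.53], with a log2 ratio of 0.67 after centring by gene length, and at 1493 and 2572 in the CD74 sort. The chaperones of the loading complex were abundant: Pdia3 had 8414 and 6222 normalised reads in the ACE sort and 7312 and 5818 in the CD74 sort, and Calr 7787 and 7366, and 7310 and 6874. The Pir, Lilr and Ly49 families include receptors for class I molecules. Among 4 of their genes, 1 was called higher in the ACE sort (10.5% of all genes) and 0 in the CD74 sort (10.1%). It was Lilrb4a, from 1700 to 3713 in the ACE sort or 2.18-fold [2.06 to 2.31]. Pirb, an inhibitory receptor for class I, had 4207 and 4378 in the ACE sort and 3503 and 3871 in the CD74 sort.

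MHC class II genes, which show peptides taken up from outside the cell, served for comparison. In the ACE sort 5 of 9 were called higher (10.5% of all genes) and 0 lower (9.77%), and the median log2 ratio was 2.38. The CD74 sort had 5 of 8 called higher (10.1%) and 0 lower (8.57%), and a median of 1.94, Cd74 itself being the sorting marker there. Without a minimum fold, 7 intervals lay above 1 in the ACE sort (34.4% of all genes) and 1 below (42.6%). The CD74 sort had 5 above (36.8%) and 1 below (38.5%). H2-DMa had the lowest log2 ratio of the class II genes, -0.37 in the ACE sort and -0.61 in the CD74 sort. H2-Eb1 had 2618 and 18032 in the ACE sort, 6.89-fold higher [6.61 to 7.18], and 1787 and 9069 in the CD74 sort, 5.07-fold higher [4.78 to 5.38]. The H2-Eb1 ratios thus lay beyond the 1.83-fold and 1.28-fold of H2-K1 in the same libraries, with intervals that did not overlap. H2-Eb1 was named for the size of its ratio, so this contrast holds for that gene and not for the whole list.

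**Figure D5:**
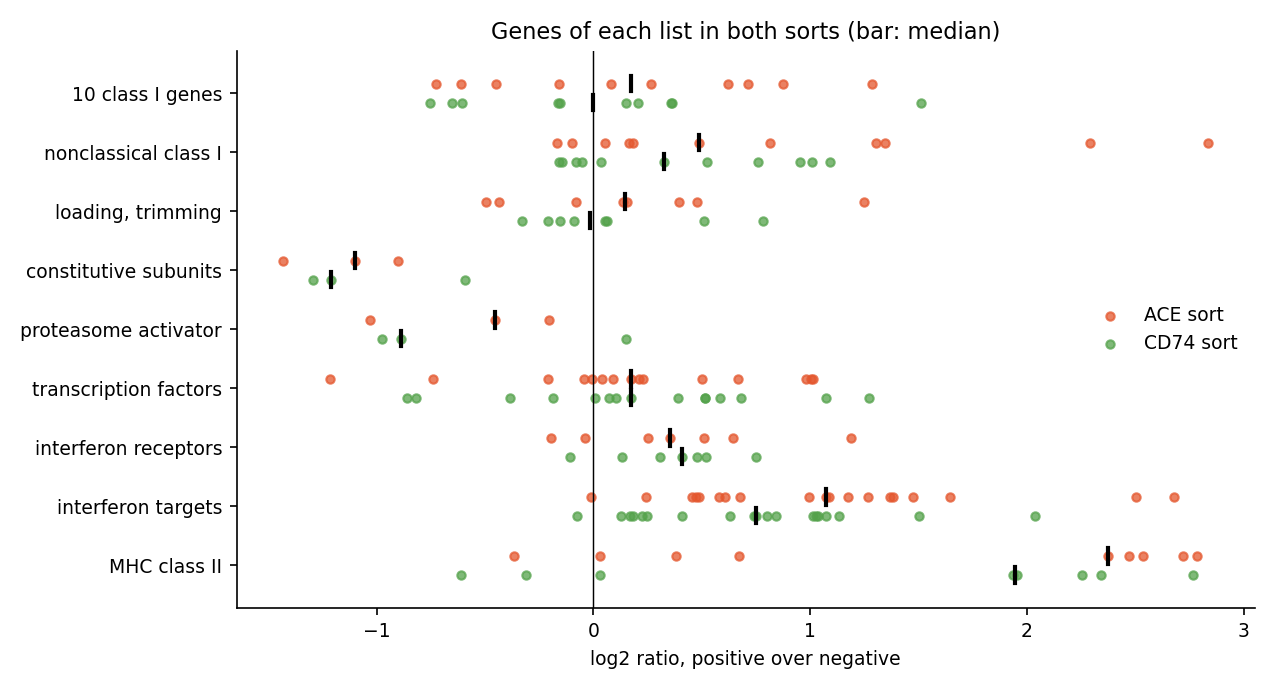
Log2 ratio of each gene tested in the 10 class I genes and 8 related lists, in the ACE sort (orange) and the CD74 sort (green); bars are medians. The medians of the constitutive subunits are the lowest, at -1.10 and -1.21, and those of the MHC class II genes the highest, at 2.38 and 1.94.

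Markers of other cells moved with both sorts, and their part in these differences was not tested. The summed normalised reads of 12 T and NK cell markers were 1263 in the ACE-negative and 373 in the ACE-positive library, and 1402 and 458 in the CD74 sort, with 4 of 5 tested genes called lower in each sort. Those of 9 neutrophil markers were 188966 and 130515 in the ACE sort and 265715 and 133079 in the CD74 sort, with 2 and 3 of 9 called lower. Centred by gene length, 0 of these 9 were called lower in either sort, and 1 was called higher in the ACE sort. Their median log2 ratio, -0.68 in the ACE sort and -0.84 in the CD74 sort, then became 0.06 and -0.21. The summed normalised reads of 7 B cell markers were 1090 and 2045, and 2035 and 1522. Those of 8 dendritic cell markers were 2804 and 1529, and 2306 and 1148. The 6 basophil and mast cell markers had 2673 and 1254, and 1637 and 7317. The 8 fibroblast and bone cell markers had 12065 and 35999, and 16672 and 22780. The 6 endothelial markers had 743 and 1240, and 739 and 995, and the 7 erythroid markers 5502 and 10806, and 13751 and 5943. Of the 7 erythroid markers, 4 were called higher in the ACE sort and 4 lower in the CD74 sort. Centring by gene length made these counts 6 and 0. The 9 macrophage and monocyte markers had 302083 and 184818, and 222076 and 153330, with 4 called higher and 1 lower in the ACE sort and 1 higher in the CD74 sort. Lyz2, which neutrophils also express, held most of these sums, with 273582 and 124265 in the ACE sort and 198917 and 118310 in the CD74 sort. Of the 9 markers, 7 in the ACE sort (34.4% of all genes) and 8 in the CD74 sort (36.8%) had intervals above 1. The median log2 ratios were 0.92 and 0.49. None of the listed markers was at 0 reads in any library.

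Scaling moved the calls of all genes. Of all genes called, 51.9% were higher in the ACE sort and 54.1% in the CD74 sort as normalised by the authors. These shares were 66.6% and 73.7% with plain totals, where the median over all genes shifted by 0.14 and 0.18 (log2), 61.7% and 65.9% under totals without the 50 most abundant genes, where it shifted by 0.10 in each sort, and 64.8% and 61.4% when centred by gene length.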

How the data were processed

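The 4 libraries are 1 each of CD45-positive, Cx3cr1-positive periosteum cells sorted by ACE or CD74, made from total RNA with an Illumina TruSeq kit, per the labels' protocols. The submitters' processing notes name HISAT2 and GRCm38. Which counter, strand setting, annotation release and statistical test were used is not given in the sources used here. Each sort has a deposited table, in which the authors give per library a signal headed as a base mean, per the file headers. From its values it was read as whole reads divided by a size factor, since each library has its own step. The authors also list per gene their p-value, raw and adjusted, per the file headers. For CD74 the labels name a table otherwise than the deposited one, as a control beside an unexplained abbreviation. Its columns were read as CD74-negative and CD74-positive, as its own name and header say. Further per-library columns numbered 0.

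In each library 100% of values, to within 0.001 reads, were a whole number times a fixed step, so whole reads were recovered. Ratios are of normalised reads, with exact conditional (Clopper-Pearson) 95% intervals, and log2 ratios use a pseudocount of 1, which understates the ratio of low genes. Intervals of levels are exact Poisson, those of shares exact binomial, and those of ratios between gene pairs from the log odds ratio. Reads carry no molecular identifiers, so intervals cover counting error only, and a call compares a pair of libraries, not conditions. With 1 library per group no count test (edgeR, DESeq2) could be fitted, so no p-value of a difference was computed. TMM factors came from edgeR 4.0.16 in R 4.3.3, and other steps used Python 3.11.15 (scipy 1.17.1, pandas 2.3.3, numpy 2.4.6, matplotlib 3.10.9). The calls were tested on simulated data that held counting error only, which cannot check spread between replicates or the length trend.

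Coordinates and lengths (exon bases) are those of the deposited tables. Start and end were the same as in GENCODE M21, a GRCm38 annotation, for 99.1% of matched genes in both tables, and shared runs of 50 bases were sought in its transcripts. The 10 genes and all lists were chosen with earlier results of these data known. Genes named from a list are its 2 with the highest mean and its 2 with the largest log2 ratio in size in either sort, among genes with a mean of at least 50 normalised reads, and not every gene so taken is printed. All constitutive and activator subunits and the genes of the sorting markers are named too, and so is H2-DMa, the lowest of the class II genes.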

Additional observations from a re-analysis of the deposited data

Results flagged for a closer look

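B2m had a log2 ratio, positive over negative, of 0.62 in the ACE sort and -0.16 in the CD74 sort, so the single pair of libraries in each sort moved in opposite directions. The difference between the sorts was not tested, since each group holds 1 library. Centred by gene length, the ratios were 1.37 and 0.82, both above 0.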

How the results depend on the processing

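Plain totals called 2 of the 10 genes higher in the ACE sort, H2-K1 beside Nlrc5, where 13.3% of all genes were called higher, and centring by gene length called 4 (10.2%). A fold of 1.5 called 4 higher and 2 lower in the ACE sort (20.3% and 23.8% of all genes), and 3 lower in the CD74 sort (22%). The median log2 ratio of the 10 genes in the ACE sort was 0.32 under plain totals, 0.27 without the 50 most abundant genes and 0.42 when centred by gene length, and in the CD74 sort it was 0.18, 0.10 and 0.42. In the CD74 sort the ratio of B2m turned to 0.018 under plain totals and 0.82 when centred, and that of Tap1 to 0.024 under plain totals. The difference in inducible share in the CD74 sort was 6.28 points without division by length. The cause of these moves was not tested. TMM scaling and minimum means of 1 and 200 changed no count of calls among the 10 genes, and TMM scaling and pseudocounts of 0.1 and 5 changed no direction of their log2 ratios. The use of transcript lengths was chosen after seeing the data. No paired analysis was possible because each group holds 1 library, and for the same reason no replicate could be left out.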
